A study of Mus musculus with 19 samples.

Results

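The 10 genes described here handle iron in the cell or set how easily its lipids are oxidised: Fth1, Ftl1, Tfrc, Trf, Slc40a1, Slc11a2, Slc39a14, Cp, Ncoa4 and Acsl4. They were taken by symbol, and all 10 were found among the 54532 genes of the tables. RNA was sequenced from 19 whole obstructed kidneys of male mice aged 8 to 9 weeks on a C57BL/6J background. In unilateral ureteral obstruction (UUO) the left ureter is tied, which brings on tubular injury and fibrosis in that kidney. All 4 groups underwent UUO, and all kidneys were taken on day 12 after perfusion with heparin. WT mice were given PBS (n = 5) or rCD5L (n = 5). CD5L KO mice, which lack a soluble scavenger receptor protein made by macrophages, were given PBS (n = 4) or rCD5L (n = 5). The recombinant protein was injected into the peritoneum daily at 0.5 mg per mouse. No kidney without obstruction is among these samples, so the levels below describe obstructed tissue.

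Most cells take up iron bound to transferrin (Trf) through the transferrin receptor (Tfrc), and the divalent metal transporter Slc11a2 then moves the iron out of the endosome. Slc39a14 carries iron that is not bound to transferrin. Iron that is not used is kept in ferritin, a shell of heavy (Fth1) and light (Ftl1) chains, and Ncoa4 delivers ferritin to the lysosome when iron is needed. Ferroportin (Slc40a1) exports iron, and the ferroxidase ceruloplasmin (Cp) oxidises it. Ferroptosis is a form of cell death driven by iron-dependent oxidation of membrane lipids, and Acsl4 activates the polyunsaturated fatty acids that are oxidised. In the kidney the proximal tubule takes filtered iron back from the urine.

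All 10 are protein-coding, and their gene bodies in GRCm38 are given here. The uptake genes are Tfrc (ENSMUSG00000022797) at chr16:32608920-32632794, Trf (ENSMUSG00000032554) at chr9:103204001-103230444, Slc11a2 (ENSMUSG00000023030) at chr15:100387898-100425072 and Slc39a14 (ENSMUSG00000022094) at chr14:70303469-70351425. The storage genes are Fth1 (ENSMUSG00000024661) at chr19:9982703-9985092, Ftl1 (ENSMUSG00000050708) at chr7:45457944-45459884 and Ncoa4 (ENSMUSG00000056234) at chr14:32159865-32179855. The others are Slc40a1 (ENSMUSG00000025993) at chr1:45908068-45926523, Cp (ENSMUSG00000003617) at chr3:19957054-20009145 and Acsl4 (ENSMUSG00000031278) at chrX:142317993-142390535.

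Several of these mRNAs carry iron-responsive elements, short hairpins that iron regulatory proteins bind when iron is low. Bound in the 5′ UTR they block translation, and bound in the 3′ UTR they protect the mRNA from decay, so iron acts on ferritin mainly through translation and on Tfrc through the stability of its mRNA. A run of C, NNNNN and CAGTGN, in which all 5 bases before CAGTGN pair with the 5 bases after it (G with T allowed), was searched on the transcript strand of GENCODE M21 transcripts (GRCm38). It occurred in the 5′ UTR of 28 of 19994 genes (0.14%) and in the 3′ UTR of 127 of 20804 genes (0.61%). The 3 matching 5′ UTRs among the 10 genes were those of Fth1, Ftl1 and Slc40a1, and are shown because their mRNAs share this control of translation. The loop CAGTGN is in capitals.
Fth1, chr19:9982731-9982760, + strand: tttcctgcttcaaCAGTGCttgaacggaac
Ftl1, chr7:45459779-45459808, - strand: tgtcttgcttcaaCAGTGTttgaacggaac
Slc40a1, chr1:45925465-45925494, - strand: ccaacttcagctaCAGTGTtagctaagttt

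The 3′ UTR of Tfrc held 4 matches to this run, and none of the other 9 genes matched in the 3′ UTR. The search required every pair of the stem, so an element with a bulge or a mismatch there would be missed. A gene without a match may thus still carry an element, and Tfrc may carry more. Each window is 30 bases.
Tfrc, chr16:32631218-32631247, + strand: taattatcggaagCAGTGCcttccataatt
Tfrc, chr16:32631597-32631626, + strand: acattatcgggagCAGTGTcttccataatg
Tfrc, chr16:32631662-32631691, + strand: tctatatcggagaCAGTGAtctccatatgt
Tfrc, chr16:32631709-32631738, + strand: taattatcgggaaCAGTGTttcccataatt

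By mean level over the 19 kidneys, Fth1 stood first at 2004 FPKM, a value per length of transcript and per library size. It was followed by Ftl1 (497), Cp (71.0), Acsl4 (17.1), Slc40a1 (11.9), Slc11a2 (9.80), Ncoa4 (5.94), Slc39a14 (4.71), Tfrc (4.02) and Trf (2.61). In the 5 kidneys of WT mice given PBS, the ranges of neighbours in this order overlapped only for Ncoa4 (5.30 to 5.77 FPKM) with Slc39a14 (4.23 to 6.02 FPKM), and for Tfrc (2.06 to 3.81 FPKM) with Trf (2.61 to 3.54 FPKM). Fth1 alone took 0.155% to 0.376% of all counts of a kidney, and its count was at least 30209. Trf had the thinnest data, with 37 to 323 counts per kidney.

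Total counts lay between 17917491 and 23847090 per kidney. Cd5l itself had 0 counts in each of the 9 CD5L KO kidneys, which allows up to 3 counts, and 3 to 15 counts in the 10 WT kidneys. Replicates 3 and 4 of CD5L KO mice given rCD5L stood apart from the rest over all expressed genes. Their root mean square deviation from the mean profile was 0.648 and 1.01 on the log2 scale, against 0.317 to 0.401 in the other 17. In replicate 4, 8 proximal tubule markers summed to 4298 FPKM, against 227 to 619 in those 17, and 8 macrophage markers summed to 482 FPKM, against 1243 to 2139. Further sums of replicate 4 outside the range of those 17 were thick ascending limb (237 against 57.1 to 101 FPKM), hepatocyte (144 against 32.4 to 87.0), myofibroblast (184 against 295 to 696), failed-repair tubule (191 against 329 to 486), T and B cell (1.38 against 3.37 to 7.37) and epididymis (22.3 against 4.62 to 22.0). In replicate 3 the proximal tubule and macrophage sums were 694 and 1397 FPKM. Other sums of replicate 3 outside the range of those 17 were collecting duct principal cells (190.4 against 43.0 to 151 FPKM), endothelium (183 against 109 to 154), epididymis (34.0 against 4.62 to 22.0), thick ascending limb (46.9 against 57.1 to 101) and failed-repair tubule (501 against 329 to 486). For the 10 genes, main edgeR fold changes that use this group are therefore given with and without these 2 kidneys. List counts by edgeR are also given both ways. Fold changes of other genes and medians of cell markers are given only with these kidneys. The level also depended on gene length, to a degree that did not overlap between the PBS groups but overlapped between some other groups. The slope of the log2 level on log2 gene length, relative to the mean of all kidneys, was -0.0481 to -0.0284 in the CD5L KO PBS group, against -0.00380 to 0.0320 in the WT PBS group.

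**Figure D1:**
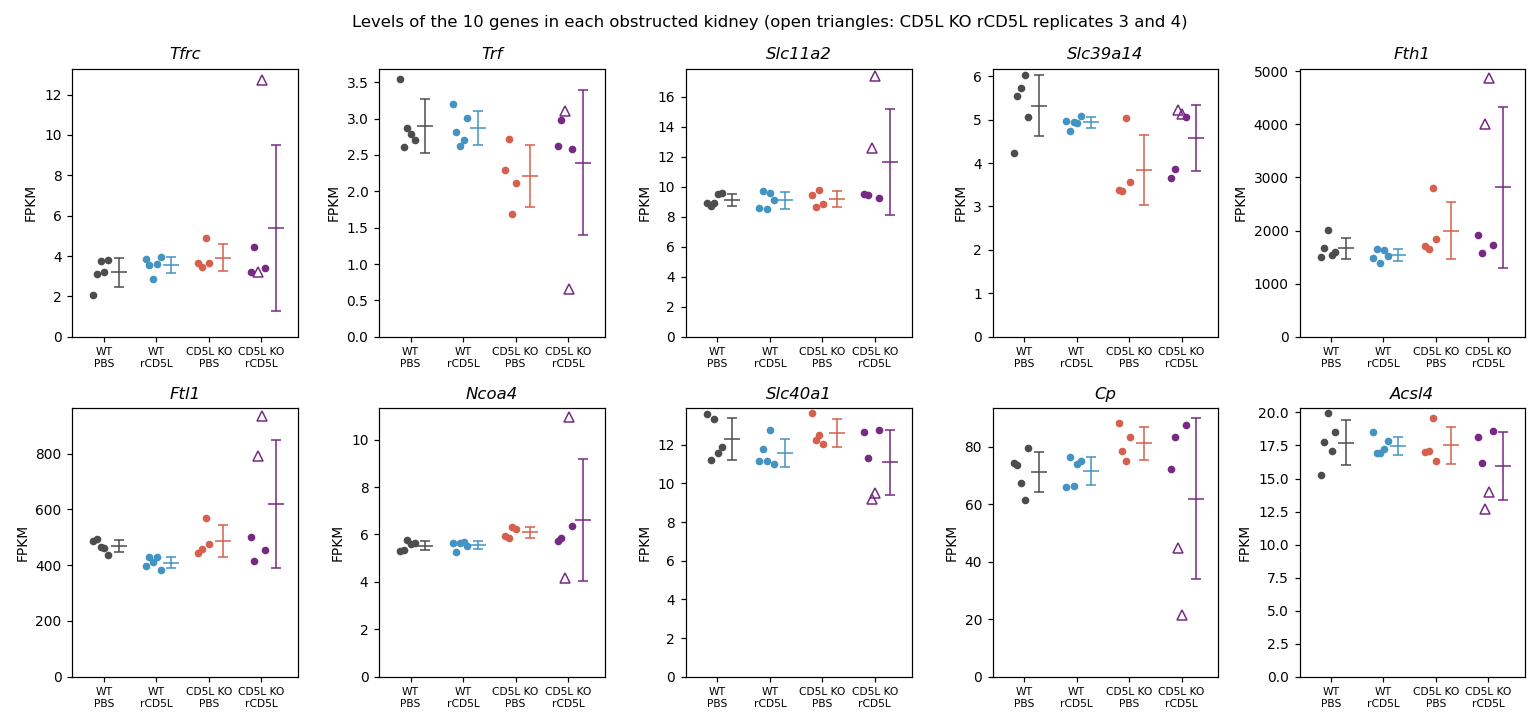
FPKM of each of the 10 genes (1 panel each, linear axis from 0) in every kidney, by group, with the mean and SD beside the points; open triangles mark replicates 3 and 4 of CD5L KO mice given rCD5L. These 2 kidneys set the upper end for Fth1 (3996 and 4871 FPKM) and Ftl1 (792 and 935 FPKM) and the lower end for Cp (44.8 and 21.6 FPKM).

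The first question was whether loss of CD5L went with a different level of these genes under PBS. Slc39a14 fell in CD5L KO mice, and the other 9 genes did not pass the test. The test was edgeR's quasi-likelihood test on the counts with Benjamini-Hochberg adjustment over 17579 genes, and a gene was called at an adjusted p under 0.05. So 1 of the 10 genes was called, where 10.5% of all genes were, and 4 of 10 (Trf, Slc39a14, Cp and Ncoa4) had an unadjusted p under 0.05, where 26.6% did. The median log2 fold change of the 10 genes was 0.06, against -0.00464 over all genes tested. In whole tissue, fewer cells of a type and less RNA per cell cannot be told apart.

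Among the genes of uptake, Slc39a14 measured 4.23, 5.54, 5.73, 6.02 and 5.07 FPKM in replicates 1 to 5 of WT mice given PBS and 3.38, 3.37, 5.04 and 3.56 FPKM in replicates 1 to 4 of CD5L KO mice given PBS. Of the 4 CD5L KO kidneys, 3 lay below every WT kidney, while replicate 3 lay within the WT range, so the groups overlapped. The log2 fold change was -0.46 (SE 0.128, edgeR adjusted p = 0.0398). The call was kept in 2 of the 9 fits that left out 1 kidney, those without replicate 3 of CD5L KO (-0.61, edgeR adjusted p = 0.0128) and without replicate 1 of WT (-0.53, edgeR adjusted p = 0.0208), and was lost in the other 7, where the value stayed between -0.48 and -0.40. Slc39a14 has the longest gene model of the 10, with 10550 bases. With an offset for the gene length trend, its log2 fold change was -0.37 (edgeR adjusted p = 0.118), which is no longer past the threshold, and the call was also lost when all 19 kidneys shared 1 fit (-0.45, edgeR adjusted p = 0.184), in which 12 of 18454 genes were called. It was lost as well with limma on log2 FPKM, at -0.39 with a pseudocount of 1 (adjusted p = 0.0775) and -0.47 with a pseudocount of 0.1 (adjusted p = 0.0743).

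Other cell markers moved with the same contrast. All 5 myofibroblast markers were lower in CD5L KO mice and 4 were called, with a summed level of 295 to 416 FPKM against 442 to 696 in WT mice. All 5 endothelial markers were lower and 3 were called, with 109 to 125 FPKM against 132 to 154. No gene of these lists was at 0 in a group. Of 8 macrophage markers 5 were lower and 3 higher, and 1 was called, as lower, with sums of 1243 to 2139 FPKM against 1295 to 1755. The sum of 4 urothelial markers was higher without overlap, at 85.4 to 137 FPKM in CD5L KO against 9.60 to 69.1 FPKM in WT mice, with all 4 higher (median log2 fold change 0.83) and none called. Adipocyte markers were also higher in 4 of 4 (median 0.76), with sums of 39.5 to 144 against 19.6 to 124 FPKM, and red cell markers lower in 5 of 5 tested (median -0.17), with sums over the 6 listed of 209 to 418 against 228 to 516 FPKM. Thick ascending limb markers were lower in 3 of 5 (median -0.38), with 63.3 to 76.4 against 57.1 to 101 FPKM, and edgeR called no gene of these 3 lists. None of 8 proximal tubule markers was called by edgeR, with sums of 256 to 541 and 275 to 619 FPKM. Failed-repair tubule markers were higher in 6 of 8 (median 0.07) with none called, and their sums were 402 to 486 against 329 to 426 FPKM. The part of these shifts in the levels of Slc39a14, Cp, Ncoa4 and the other genes here was not tested.

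Tfrc measured 2.06, 3.12, 3.75, 3.22 and 3.81 FPKM in WT mice and 3.65, 3.45, 4.91 and 3.64 FPKM in CD5L KO mice. Replicate 1 of WT was the lowest and replicate 3 of CD5L KO the highest, and the groups overlapped. The log2 fold change was 0.30 (SE 0.161, edgeR adjusted p = 0.251), and 0.18 without replicate 1 of WT. Its ligand Trf measured 3.54, 2.61, 2.87, 2.78 and 2.71 FPKM in WT mice and 2.29, 2.72, 1.69 and 2.12 FPKM in CD5L KO mice. Here 3 of the 4 CD5L KO kidneys lay below all WT kidneys, and the log2 fold change of -0.38 (SE 0.142) missed the threshold (edgeR adjusted p = 0.109). Slc11a2, the endosomal transporter, had nearly the same mean in both groups, with 9.14 ± 0.404 FPKM (SD, n = 5) in WT and 9.18 ± 0.542 FPKM (SD, n = 4) in CD5L KO mice.

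Of the storage genes, Fth1 measured 1507, 1667, 2009, 1542 and 1604 FPKM in WT mice and 1703, 1653, 2797 and 1836 FPKM in CD5L KO mice. Replicate 3 of CD5L KO was the only kidney above the WT range, and the groups otherwise overlapped. The log2 fold change was 0.27 (SE 0.144, edgeR adjusted p = 0.248), and 0.07 without that replicate. Ftl1 measured 487, 492, 465, 463 and 438 FPKM in WT mice and 443, 459, 571 and 477 FPKM in CD5L KO mice, again with replicate 3 highest, and a log2 fold change of 0.07 (SE 0.0754, edgeR adjusted p = 0.621). The processed copy Ftl1-ps1 had 1.62% to 2.13% of the counts of Ftl1, and how reads shared by these sequences were assigned is not given in the sources used here.

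Ncoa4, the cargo receptor of ferritin, was the only one of the 10 genes whose groups did not overlap, where 14.1% of all genes tested had none. It measured 5.30, 5.36, 5.77, 5.61 and 5.63 FPKM in WT mice and 5.96, 5.84, 6.33 and 6.23 FPKM in CD5L KO mice, with every CD5L KO kidney higher. The difference was small, with a log2 fold change of 0.15 (SE 0.0494, edgeR adjusted p = 0.0737). With the length offset it was 0.23 and passed the threshold (edgeR adjusted p = 0.0209).

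Of the export genes, Cp measured 74.6, 73.6, 67.4, 61.6 and 79.5 FPKM in WT mice and 88.3, 78.5, 75.2 and 83.4 FPKM in CD5L KO mice. WT replicate 5 was the only WT kidney within the CD5L KO range. The log2 fold change was 0.20 (SE 0.0802, edgeR adjusted p = 0.132), and 0.28 with the length offset (edgeR adjusted p = 0.0479). The gene Hps3 overlaps Cp on the opposite strand and had 613 to 1058 counts per kidney, against 3487 to 23491 for Cp. Since the strand setting of the counting is not given in the sources used here, reads from the overlap cannot be assigned with certainty. Slc40a1 showed 12.3 ± 1.08 FPKM (SD, n = 5) in WT and 12.6 ± 0.716 FPKM (SD, n = 4) in CD5L KO mice, a log2 fold change of 0.05 (SE 0.0694). Acsl4 showed 17.7 ± 1.73 FPKM (SD, n = 5) and 17.5 ± 1.42 FPKM (SD, n = 4), a log2 fold change of -0.01 (SE 0.0781), and its sign turned in 5 of the 9 fits that left out 1 kidney.

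**Figure D2:**
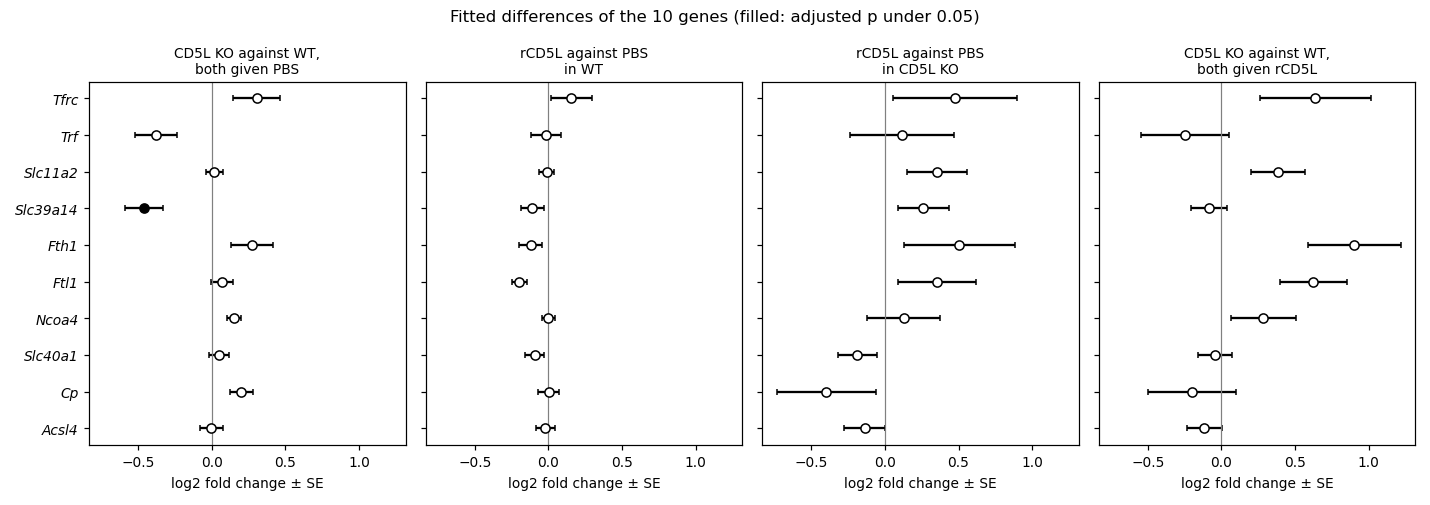
Fitted log2 fold change of each gene (points) with its SE (bars) in the 4 comparisons, on a shared axis; filled points have an adjusted p under 0.05. Only Slc39a14 in CD5L KO against WT, both given PBS, is filled (-0.46), and the bars for Fth1 are wider where CD5L KO mice given rCD5L are compared (0.376 and 0.314) than elsewhere (0.144 and 0.0776).

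The next question was what rCD5L did in WT mice. By edgeR, 0 of the 17455 genes tested were called, while 2797 (16%) had an unadjusted p under 0.05 and DESeq2 called 508. Of the 10 genes, 1 (Ftl1) had an unadjusted p under 0.05. Ftl1 measured 397, 428, 413, 428 and 383 FPKM in replicates 1 to 5 of WT mice given rCD5L, all below the lowest WT kidney given PBS, at 438 FPKM. It was the only one of the 10 genes without overlap, where 3.58% of all genes had none. The log2 fold change of -0.20 (SE 0.0505) missed the threshold by edgeR (adjusted p = 0.117) and passed it by DESeq2 (-0.20, adjusted p = 0.00661). Over the 10 fits that left out 1 kidney it stayed between -0.22 and -0.17. The slope on gene length was 0.0284 to 0.0498 under rCD5L against -0.00380 to 0.0320 under PBS, and Ftl1 has a short gene model of 1340 bases. With the length offset its log2 fold change was -0.13 (edgeR adjusted p = 0.225). Cell markers differed in the same contrast, though edgeR called none of them. All 8 proximal tubule markers were lower under rCD5L (median log2 fold change -0.47), with sums of 227 to 362 FPKM against 275 to 619 under PBS. All 8 macrophage markers were higher (median 0.14), with 1479 to 1773 against 1295 to 1755 FPKM, and all 5 hepatocyte markers tested were lower (median -0.18), with sums over the 6 listed of 32.4 to 39.8 against 35.5 to 63.9 FPKM. Red cell markers were lower in 5 of 5 (median -0.65), with sums over the 6 listed of 39.97 to 373 against 228 to 516 FPKM, urothelial markers were lower in 4 of 4 (median -0.08), and epididymis markers were higher in 4 of 4 tested (median 0.75), with 9.19 to 22.0 against 6.43 to 13.5 FPKM. Of the 8 epididymis markers, 3 were at 0 throughout under rCD5L and 1 under PBS, and no gene of the other lists was at 0 in a group. Their part in the level of Ftl1 was not tested.

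Fth1 measured 1481, 1658, 1393, 1631 and 1518 FPKM in WT mice given rCD5L, within or just under the range under PBS, and its log2 fold change was -0.12 (SE 0.0776, edgeR adjusted p = 0.476). Without replicate 3 of WT mice given PBS, the highest of its group, the value was -0.0422. The remaining 8 genes differed little. Their log2 fold changes ran from -0.11 for Slc39a14 to 0.16 for Tfrc, which was 0.0280 without replicate 1 of WT mice given PBS. Slc39a14 was -0.19 without that replicate and -0.06 without replicate 4 of the same group. Slc39a14 measured 4.98, 4.74, 4.95, 4.92 and 5.09 FPKM, a narrower spread than under PBS, with its mean of 4.93 ± 0.127 FPKM (SD, n = 5) set against 5.32 ± 0.701 FPKM (SD, n = 5). Ncoa4 differed least, with 5.54 ± 0.166 FPKM (SD, n = 5) under rCD5L and 5.53 ± 0.197 FPKM (SD, n = 5) under PBS.

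In CD5L KO mice, rCD5L went with no called gene. By edgeR 0 of 17467 genes passed, with 502 (2.87%) at an unadjusted p under 0.05, and DESeq2 called 9. Of the 10 genes, 0 were called by either tool and 0 had an unadjusted p under 0.05. None was without overlap, where 2.34% of all genes tested were. The spread of the treated group was wide. Fth1 measured 1915, 1575, 3996, 4871 and 1725 FPKM in its replicates 1 to 5, Ftl1 503, 416, 792, 935 and 454 FPKM and Cp 72.3, 83.4, 44.8, 21.6 and 87.7 FPKM. For all 3 genes the replicates 1, 2 and 5 lay near the kidneys given PBS, while replicates 3 and 4 lay far above them in ferritin and far below them in Cp.

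The fitted log2 fold changes were 0.51 (SE 0.376) for Fth1, 0.35 (SE 0.262) for Ftl1 and -0.40 (SE 0.336) for Cp. Without replicates 3 and 4 they were -0.21 (SE 0.165), -0.10 (SE 0.0988) and -0.01 (SE 0.0867), so the direction for ferritin rested on these 2 kidneys. Slc11a2 measured 9.51, 9.46, 12.6, 17.4 and 9.28 FPKM and went from 0.35 to 0.03 when they were left out. Slc40a1 measured 12.6, 11.3, 9.21, 9.52 and 12.7 FPKM, with replicates 3 and 4 the lowest, and its log2 fold change was -0.19 with them and -0.05 without.

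The 2 kidneys that stood apart were not alike in every gene. Tfrc measured 3.22, 4.43, 3.19, 12.7 and 3.43 FPKM and was highest in replicate 4 and lowest in replicate 3, with a log2 fold change of 0.48 with these kidneys and -0.09 without. Trf measured 2.63, 2.99, 3.11, 0.660 and 2.58 FPKM, lowest in replicate 4 and highest in replicate 3, with 0.11 and 0.30. Ncoa4 measured 5.72, 5.84, 4.17, 10.97 and 6.38 FPKM, highest in replicate 4 and lowest in replicate 3, with 0.13 and -0.03. Acsl4 measured 18.2, 16.1, 12.7, 13.996 and 18.6 FPKM and was lowest in these 2 kidneys, with -0.14 and 0.00247. The marker sums of replicates 3 and 4 given above moved with these levels, among them those of proximal tubule, hepatocytes, myofibroblasts and macrophages in replicate 4, and their part in them, ferritin, Trf and Cp included, was not tested. Against PBS, proximal tubule markers were higher in 8 of 8 (median log2 fold change 1.34) and epididymis markers in 4 of 4 tested (1.40). Epididymis sums were 13.1 to 34.0 FPKM against 4.62 to 11.9, without overlap. Thick ascending limb (0.16) and hepatocyte markers (0.33) were higher in 5 of 5 tested. Red cell (-0.54, 5 of 5 tested) and urothelial markers (-0.55, 4 of 4) were lower. EdgeR called none of these, and their part was not tested. Slc39a14 measured 3.67, 3.85, 5.21, 5.13 and 5.06 FPKM, with replicates 3, 4 and 5 within the range of WT mice given PBS and replicates 1 and 2 below it. Replicates 3 and 4 were the highest of the group, and the log2 fold change against PBS was 0.26 (SE 0.172) with them and 0.12 (SE 0.155) without. When only replicate 3 of CD5L KO mice given PBS was left out, it was 0.43.

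**Figure D3:**
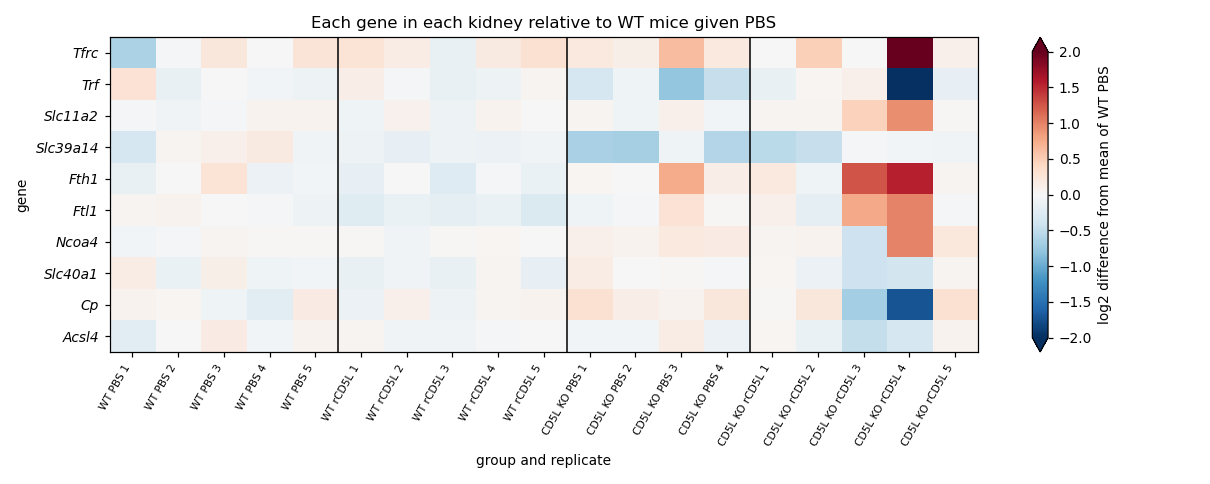
Log2 difference of each gene (rows) in each kidney (columns, by group and replicate) from the mean FPKM of WT mice given PBS; red is higher and blue lower, with colours capped at 2. The strongest colours are in replicates 3 and 4 of CD5L KO mice given rCD5L, and Slc39a14 is bluest in replicates 1, 2 and 4 of CD5L KO mice given PBS and 1 and 2 of CD5L KO mice given rCD5L.

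When both genotypes were given rCD5L, edgeR called 0 of 17360 genes, with 3090 (17.8%) at an unadjusted p under 0.05, and DESeq2 called 70. Of the 10 genes, 0 were called by either tool, 2 (Fth1 and Ftl1) had an unadjusted p under 0.05, and none was without overlap, where 7.38% of all genes were. Fth1 was 2816 ± 1513 FPKM (SD, n = 5) in CD5L KO and 1536 ± 109 FPKM (SD, n = 5) in WT mice, a log2 fold change of 0.90 (SE 0.314, edgeR adjusted p = 0.259). For Ftl1 it was 0.62 (SE 0.227, edgeR adjusted p = 0.259). Without the 2 kidneys that stood apart the values were 0.19 (edgeR adjusted p = 0.157) for Fth1 and 0.17 (edgeR adjusted p = 0.167) for Ftl1. In a fit of all 19 kidneys with a common spread, both passed the threshold (edgeR adjusted p = 0.0456 and 0.0434), as did 1291 of 18454 genes. With the length offset the values were 0.73 (edgeR adjusted p = 0.331) for Fth1 and 0.49 (edgeR adjusted p = 0.333) for Ftl1, and the slope on gene length was -0.0547 to 0.00676 in CD5L KO against 0.0284 to 0.0498 in WT mice. Cell markers differed in this contrast as well, with none called by edgeR. Proximal tubule markers were higher in CD5L KO mice in 8 of 8 (median log2 fold change 1.88), with sums of 328 to 4298 against 227 to 362 FPKM, and hepatocyte markers in 5 of 5 tested (median 1.06), with sums over the 6 listed of 39.7 to 144 against 32.4 to 39.8 FPKM. Adipocyte markers were higher in 4 of 4 (median 0.80), with 12.0 to 129 against 12.2 to 66.6 FPKM, and urothelial markers in 4 of 4 (median 0.38), with 41.0 to 93.7 against 23.7 to 87.4 FPKM. Macrophage markers were lower in 8 of 8 (median -0.25), with 482 to 1823 against 1479 to 1773 FPKM, and myofibroblast markers in 5 of 5 (median -0.44), with 184 to 596 against 449 to 643 FPKM. In the 3 CD5L KO kidneys other than replicates 3 and 4 the sums were 328 to 361 FPKM for proximal tubule, 39.7 to 55.1 for hepatocytes, 1695 to 1823 for macrophages and 302 to 468 for myofibroblasts. The part of these markers in the ferritin levels was not tested. Slc39a14 differed by -0.09 (SE 0.121), and by -0.23 (SE 0.0922, edgeR adjusted p = 0.181) without the 2 kidneys. It was -0.00332 without only replicate 1 of CD5L KO mice given rCD5L and -0.0269 without only replicate 2. The size of this value thus rested on several kidneys.

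Whether the response to rCD5L differed between the genotypes was tested with the interaction term. EdgeR and DESeq2 each called 0 of the 10 genes and 0 genes in all, and 1154 of 18454 genes (6.25%) had an unadjusted p under 0.05 by edgeR. Ftl1 was the only one of the 10 with an unadjusted p under 0.05, with an interaction of 0.57 on the log2 scale (SE 0.263, edgeR adjusted p = 0.731), and 0.10 (SE 0.104) without replicates 3 and 4. For Slc39a14 it was 0.39 (SE 0.190, edgeR adjusted p = 0.731), and 0.24 (SE 0.174) without them.

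The balance of the 2 ferritin chains was described by the ratio of their FPKM values. Fth1 exceeded Ftl1 by 3.09 to 4.32 times in WT mice given PBS, 3.37 to 3.97 times in WT mice given rCD5L, 3.60 to 4.90 times in CD5L KO mice given PBS and 3.78 to 5.21 times in CD5L KO mice given rCD5L, where the 3 kidneys other than replicates 3 and 4 reached 3.81. The highest ratios, 4.90, 5.05 and 5.21, were in the same kidneys that had the highest Fth1, namely replicate 3 of CD5L KO mice given PBS and replicates 3 and 4 of CD5L KO mice given rCD5L. Across the 19 kidneys log2 levels of Fth1 and Ftl1 went together (Pearson r = 0.960, Spearman rho = 0.786, and r = 0.795 over the 17 without the 2 that stood apart). Fth1 and Trf went in opposite directions (r = -0.703, and -0.755 over 17). The correlations of Fth1 with Cp (r = -0.777, and 0.228 over 17) and with Acsl4 (r = -0.494, and 0.619 over 17) turned sign without these kidneys. These values share libraries and groups, and are given as descriptions.

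Among protein-coding genes whose log2 CPM averaged 1 or more, those most like each of the 10 over the 19 kidneys were ranked by Pearson r of log2 CPM. For Fth1 they were Slc25a39 (r = 0.981), Cox4i1 (0.980) and Acads (0.977), and r stayed at 0.904 to 0.919 without the 2 kidneys farthest from the median of Fth1. For Ftl1 they were Prelid1 (0.980), Rab5c (0.972) and Cda (0.972). For Slc39a14 they were Fkbp5 (0.914), Baiap2 (0.874) and Mcf2l (0.833), and the value for Fkbp5, which encodes a co-chaperone, was 0.888 without the 2 kidneys farthest from the median, which here were replicates 1 and 2 of CD5L KO mice given PBS. For Cp they were Birc3 (0.967), Cldn1 (0.951) and Serpinb9 (0.950), with 0.470 to 0.667 without 2 kidneys. For Slc11a2 they were Mlec (0.960), Tbc1d13 (0.957) and Cndp2 (0.956), which went down to between 0.339 and 0.537.

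For Tfrc they were Nuak2 (0.936), Apob (0.923) and Idi1 (0.921), and for Trf Parvg (0.958), Myo1g (0.954) and Gmip (0.952). For Ncoa4 they were Slc25a17 (0.975), Tmem106b (0.972) and Pnpla8 (0.969), and for Slc40a1 Cwf19l2 (0.849), Asah1 (0.847) and C9orf72 (0.839). For Acsl4 they were Ddx10 (0.902), Ehf (0.836) and Hoxb2 (0.812). In every one of these pairs r was smaller without the 2 kidneys farthest from the median.

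The 10 genes were then set beside 119 other genes of iron handling and ferroptosis in 9 lists, of which 112 were tested in CD5L KO against WT, both given PBS. By edgeR 15 of the 112 (13.4%) were called, 7 higher and 8 lower, where 10.5% of all genes were called. In the transferrin uptake cycle 3 of 15 genes were called, counting Slc39a14. Steap3, the endosomal reductase that readies iron for transport, fell from 4.75 ± 0.273 FPKM (SD, n = 5) in WT to 3.42 ± 0.365 FPKM (SD, n = 4) in CD5L KO mice (log2 fold change -0.46, SE 0.0804, edgeR adjusted p = 0.00677), with no overlap. The metalloreductase Steap1 rose from 7.58 to 9.68 FPKM (log2 fold change 0.36). The most abundant gene of this list was Dab2, an adaptor of endocytosis, at 35.0 FPKM over the 19 kidneys.

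In storage and ferritin turnover 2 of 10 genes were called. Timd2, which in mice encodes a receptor for heavy chain ferritin, rose from 15.1 ± 2.46 FPKM (SD, n = 5) to 23.2 ± 3.26 FPKM (SD, n = 4), with a log2 fold change of 0.63 (SE 0.116, edgeR adjusted p = 0.00820) and no overlap. Herc2, a ubiquitin ligase that acts on Ncoa4, fell (log2 fold change -0.38, SE 0.0611, edgeR adjusted p = 0.00557). None of the 3 export genes tested passed, and Heph, a membrane ferroxidase, had a log2 fold change of -0.26 (SE 0.0938, edgeR adjusted p = 0.101).

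Of 10 tested genes of iron sensing and the hepcidin axis only Neo1, a co-receptor of this axis, fell (-0.21), and it was named after its value was seen. The iron regulatory proteins themselves had log2 fold changes of 0.00562 for Aco1, at 39.2 and 39.4 FPKM, and 0.04 for Ireb2, at 9.18 and 8.98 FPKM in CD5L KO and WT mice. Hepcidin (Hamp) had 0 to 7 counts per kidney and was not tested. Tfr2, the second transferrin receptor, had a log2 fold change of -0.06.

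Of 16 genes that handle haem or siderophores, Blvra, a biliverdin reductase, rose (0.38, SE 0.0694, edgeR adjusted p = 0.00774) and Lrp1, the receptor of haem bound to haemopexin, fell (-0.53, SE 0.0878, edgeR adjusted p = 0.00625). Haem oxygenase Hmox1 missed the threshold (-0.30, SE 0.0946, edgeR adjusted p = 0.0650). Lcn2, a siderophore carrier secreted by injured tubules, was the most abundant of the list at 143 FPKM and differed by 0.16 (SE 0.159). In haem synthesis, Ppox fell (-0.40, SE 0.0678, edgeR adjusted p = 0.00643) and the other 8 of 9 genes did not pass, Fech being the most abundant at 26.8 FPKM. Of 18 genes for iron in mitochondria, the importer Slc25a37 fell (-0.28), and Cisd1 was the most abundant at 69.5 FPKM.

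On the side that favours lipid peroxidation 3 of 18 tested genes were called. Nox4, an NADPH oxidase abundant in the kidney, rose (0.36, SE 0.0884, edgeR adjusted p = 0.0234), Sat1 rose (0.19), and the elongase Elovl5 fell (-0.22). Pebp1 was the most abundant at 129 FPKM. On the defence side 3 of 26 genes were called. Gpx4, which reduces lipid hydroperoxides and is the central brake on ferroptosis, measured 208, 214, 259, 190.5 and 212 FPKM in WT mice and 250.1, 267, 343 and 282 FPKM in CD5L KO mice. The lowest CD5L KO kidney lay within the WT range. The log2 fold change was 0.41 (SE 0.1002, edgeR adjusted p = 0.0235). Hspb1 rose (0.35) and Bach1, a repressor released by haem, fell (-0.25), and Sat1 and Hspb1 were named after their values were seen. The cystine transporter Slc7a11 was near the floor, with 14 to 67 counts per kidney and a mean of 0.0968 FPKM, and differed by -0.08 (SE 0.331).

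With the length offset, 8 of these 15 genes stayed past the threshold (Herc2, Lrp1, Ppox, Steap3, Blvra, Timd2, Nox4 and Elovl5), and Gpx4 (0.32, edgeR adjusted p = 0.0662), Slc25a37, Bach1, Steap1, Neo1, Hspb1 and Sat1 did not. Herc2, Lrp1, Ppox, Steap3, Blvra and Timd2 were called in each of the 9 fits that left out 1 kidney, and none of the 15 was called when all 19 kidneys shared 1 fit. Nox4, Gpx4 and Slc25a37 were called in 5 of the 9, Elovl5 in 3, and Bach1, Steap1, Neo1, Hspb1 and Sat1 in 2. Without replicate 3 of CD5L KO mice given PBS, 6 of the 112 genes were called.

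**Figure D4:**
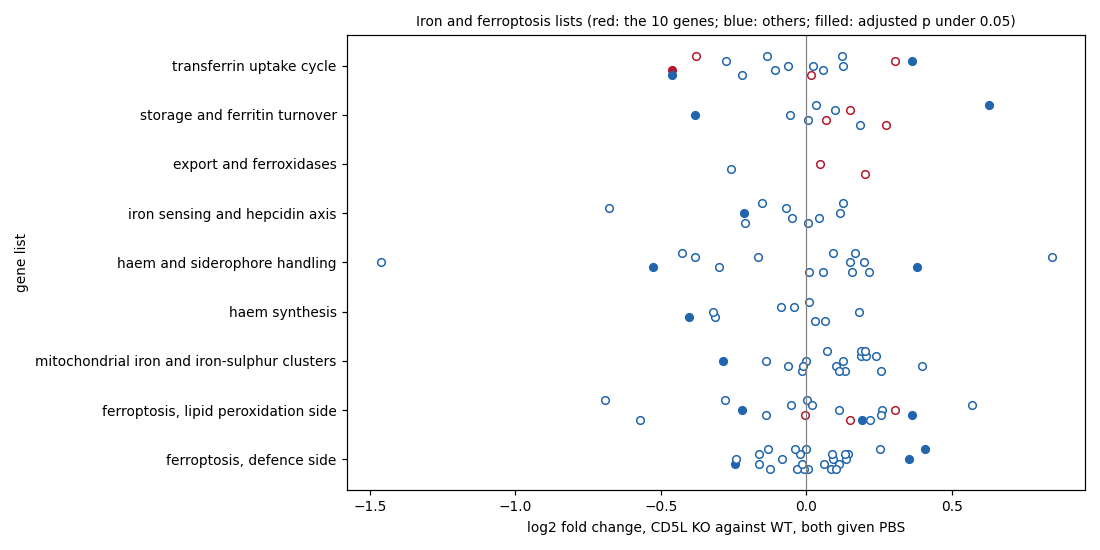
Log2 fold change of every tested gene (points) of the 9 iron and ferroptosis lists (rows), CD5L KO against WT, both given PBS; red marks the 10 genes, blue the others, and filled points have an adjusted p under 0.05. Filled points are few and lie on either side of 0. Among them Timd2 (0.63) is the farthest to the right and Lrp1 (-0.53) the farthest to the left.

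In the other comparisons edgeR called 0 of the 112 genes (113 for the interaction). With rCD5L in WT mice, 80 of 112 were lower, the median log2 fold change was -0.06 against 0.00456 over all genes, of which 51.3% were higher. Here 4 higher and 21 lower genes had an unadjusted p under 0.05, where 16% of all genes did. DESeq2 called 6. With rCD5L in CD5L KO mice, 85 of 112 were higher, with a median of 0.18 against 0.02 over all genes, 1 higher and 2 lower genes had an unadjusted p under 0.05, where 2.87% of all genes did, and DESeq2 called 0. Without the 2 kidneys that stood apart, 50 were higher and 62 lower, with a median of -0.02, so the direction of the list rested on them. The genes at an unadjusted p under 0.05 were then 4 higher and 11 lower, where 9.76% of all genes were. With both genotypes given rCD5L, 80 of 112 were higher, with a median of 0.25 against -0.01 over all genes, and 34 higher and 8 lower genes had an unadjusted p under 0.05, where 17.8% of all genes did. DESeq2 called 2, Herc2 and Timd2, and 70 genes in all. Without the 2 kidneys that stood apart edgeR called 6, namely Blvra, Gpx4, Herc2, Lrp1, Nox4 and Timd2, where it called 644 of 18012 genes in all. In that fit 72 of 113 were higher, with a median of 0.04. The genes at an unadjusted p under 0.05 were then 20 higher and 8 lower, where 21.5% of all genes were. For the interaction, 86 of 113 were higher, 11 of these had an unadjusted p under 0.05, where 6.25% of all genes did, and DESeq2 called 0. The median was 0.26, and without the 2 kidneys it was 0.03, with 69 of 113 higher, of which 5 had an unadjusted p under 0.05, where 4.96% of all genes did. These comparisons share kidneys, so their values are not independent of each other.

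Gpx4 measured 197, 197, 182, 197 and 170.1 FPKM in WT mice given rCD5L and 264, 223, 531, 609.5 and 234 FPKM in CD5L KO mice given rCD5L, with every CD5L KO kidney above every WT kidney, where 7.38% of all genes were without overlap. Its log2 fold change of 1.01 (SE 0.289) missed the threshold with all kidneys of both groups (edgeR adjusted p = 0.259). That value includes replicates 3 and 4 of CD5L KO, at 531 and 609.5 FPKM, while the other CD5L KO kidneys measured 223 to 264 FPKM. No fold change without these 2 kidneys is given here. Hmox1 measured 27.8, 28.4, 24.9, 30.2 and 23.2 FPKM and 24.7, 26.9, 59.1, 46.9 and 33.3 FPKM in the same groups, with its highest values in the 2 kidneys that stood apart. Its log2 fold change with these kidneys was 0.52 (SE 0.224, edgeR adjusted p = 0.267). The other CD5L KO kidneys, at 24.7 to 33.3 FPKM, overlapped the WT range of 23.2 to 30.2 FPKM.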

How the data were processed

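Whole obstructed kidneys were sequenced as paired-end random-primed libraries. Per the labels and the study's methods, the authors trimmed reads (Trimmomatic), aligned them to GRCm38 (HISAT2) and counted them per gene (featureCounts). Versions, strand and multimapping settings are not given in the sources used here. The authors deposited whole-number counts per gene and FPKM. The FPKM follow from count, gene length and a library size 1.20 to 1.24 times the TMM-scaled total.

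Differences in count were assessed by the quasi-likelihood test of edgeR 4.0.16 under R 4.3.3 (TMM scaling, filterByExpr with a minimum count of 10, Benjamini-Hochberg over all genes tested, threshold 0.05). Each comparison used its own groups, and the interaction all 4. DESeq2 1.42.0 and limma 3.58.1, on log2(FPKM + 1) and log2(FPKM + 0.1), were alternatives. Total counts were 17917491 to 23847090 per kidney. The code was tested on simulated data.

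The 10 genes and the lists were chosen with earlier results of these data known. The genes named were the 10, the 12 of the lists with the smallest p, the most abundant of each list and a fixed few of central role. The labels number the kidneys as biological replicates, and no 2 kidneys of a group agreed within sampling noise (chi-square per degree of freedom 7.07 to 351 over 36 pairs). The SE of a log2 fold change and the SD both include the spread between kidneys. The floor of 3 counts covers counting error only.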

Additional observations from a re-analysis of the deposited data

Results flagged for a closer look

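Of the 40 sets of values (10 genes in 4 groups), 6 held a kidney that stood apart from the rest of its group by Dixon's criterion, which chance alone meets in about 1 of 20 groups. In CD5L KO mice given PBS this was replicate 3 for 3 genes. Its Fth1 was 2797 FPKM against 1653 to 1836 in the other replicates, its Tfrc 4.91 against 3.45 to 3.65 FPKM, and its Slc39a14 5.04 against 3.37 to 3.56 FPKM. Its marker sums also differed from the rest of its group, with 151 against 57.2 to 64.3 FPKM for collecting duct principal cells, 87.0 against 41.1 to 47.0 FPKM for hepatocytes and 1243 against 1614 to 2139 FPKM for macrophages, and their part in these values was not tested. In CD5L KO mice given rCD5L, replicate 4 had Tfrc at 12.7 FPKM against 3.19 to 4.43, and Trf at 0.660 FPKM against 2.58 to 3.11. In WT mice given PBS, replicate 1 had Trf at 3.54 FPKM against 2.61 to 2.87.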

How the results depend on the processing

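The values below are log2 fold changes or numbers of genes called. In CD5L KO against WT under PBS, 1 of the 10 genes was called by edgeR, and also with DESeq2, RLE size factors and either filter. It was 0 with all 19 kidneys in 1 fit (12 of 18454 genes called in all) and with limma on FPKM at either pseudocount (1364 and 1387 of 20626), 2 (Cp and Ncoa4) with the gene length offset (1305 of 17579), and 0 to 1 when 1 kidney was left out. With the replicate number as a block it was 3 (2132 of 17579), adding Tfrc (0.39) and Cp (0.25) to Slc39a14, but same-numbered kidneys deviated together with r over 0.1 in 2 of 4 pairs here, in 3 of 4 for rCD5L in CD5L KO mice and in 0 of 5 in the other 2 comparisons. Kidneys with different numbers were not compared in this way, so these values cannot tell whether the number marks a shared order or batch. The labels do not say that it pairs the animals, and the main fits leave it out. The block moved no count of the 10 genes in the other comparisons. Of the other list genes, 15 were called, 0 with all 19 kidneys, 9 with limma at either pseudocount, and 6 to 17 when 1 kidney was left out, with 6 without replicate 3 of CD5L KO. With rCD5L in WT mice, DESeq2 called 1 of the 10 (Ftl1) and 6 others (508 genes in all). EdgeR without a filter called 1 other (137 in all), and leaving out 1 kidney gave 0 to 1 others. With both genotypes given rCD5L, DESeq2 called 2 others (70 in all), and all 19 kidneys in 1 fit called 2 of the 10 and 16 others (1291 of 18454 in all). Leaving out the 2 kidneys that stood apart, a choice made after seeing the data, called 6 others (644 of 18012 in all).

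Some values changed sign. Under PBS, Acsl4 was 0.00201 with all 19 kidneys, 0.0157 with the block and 0.0304 with the length offset, where Ftl1 was -0.0518. With rCD5L in CD5L KO mice, Trf was -0.0621 with the block and -0.0307 with limma at 0.1. Without the 2 kidneys, Fth1 was -0.21, Ftl1 -0.0987, Tfrc -0.0891, Ncoa4 -0.0338 and Acsl4 0.00247. With rCD5L in WT mice, Cp was -0.00338 with RLE, -0.00323 with DESeq2, -0.00652 without a filter, -0.00248 with the stricter filter, -0.00613 with all 19 kidneys and -0.0529 with the length offset, and Ncoa4 was 0.00132 and 0.00156 with limma. With both given rCD5L, the length offset gave Slc40a1 0.0976 and Slc39a14 0.11, and without the 2 kidneys Slc40a1 was 0.0901, Cp 0.19 and Acsl4 0.0205. The interaction of Trf was -0.0200 with limma at 0.1, and without the 2 kidneys Fth1 was -0.0837, Tfrc -0.24, Slc40a1 0.0443, Ncoa4 -0.0286 and Acsl4 0.0281. The causes were not tested.

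Leaving out 1 kidney turned a sign in these ranges. Under PBS they were -0.0131 to 0.11 for Ftl1, -0.00975 to 0.0449 for Slc11a2 and -0.0587 to 0.0381 for Acsl4. With rCD5L in CD5L KO mice they were -0.14 to 0.62 for Tfrc and -0.15 to 0.26 for Ncoa4. With rCD5L in WT mice they were -0.0604 to 0.0611 for Trf, -0.0335 to 0.0103 for Slc11a2, -0.0464 to 0.0456 for Cp, -0.0195 to 0.0181 for Ncoa4 and -0.0743 to 0.0259 for Acsl4. With both given rCD5L they were -0.0961 to 0.0242 for Slc40a1 and -0.36 to 0.0136 for Cp, and for the interaction -0.29 to 0.48 for Tfrc and -0.14 to 0.28 for Ncoa4. Counting error limits the values of Trf, with 37 to 323 counts per kidney, and of Slc7a11, with 14 to 67.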
